A study of Mus musculus with 6 samples.

Results

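The MYC, MAX and MXD network is a set of transcription factors that pair with MAX or MLX. Its 10 members here are Myc, Mycn, Mycl, Max, Mlx, Mxd1, Mxd3, Mxd4, Mxi1 and Mnt. They were matched by gene symbol, each to 1 of the 46983 Ensembl genes in the count tables. The choice of members was made with earlier results of these data known. Transcripts were counted by RNA sequencing in cultured fibroblasts from mouse embryos, a cell type of connective tissue. All 6 libraries came from C57BL/6 cells of embryos aged 14 days, at passage 16 and cultured with 10% fetal bovine serum. They fall into 3 libraries labelled wild type and 3 labelled SphK2 null, where SphK2 is sphingosine kinase 2, an enzyme that makes the lipid signal sphingosine-1-phosphate. The series title places the work in the stroma of breast cancer, and the comparison asks how the transcripts of the 2 genotypes differ.

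MAX is the shared partner of the network. MYC, MYCN and MYCL bind DNA as dimers with MAX and mostly activate genes of growth, while the MXD proteins, MXI1 and MNT compete for MAX and recruit SIN3 and histone deacetylases to silence the same sites. MLX is a second hub, which pairs with MNT, some MXD proteins and the glucose-sensing factors MondoA and ChREBP. In fibroblasts Myc is known as an early response gene of serum and growth factors, and members of the MXD family are known from cells that leave the cell cycle.

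Libraries held 15598566 to 23681718 counts in genes. Sphk2 had 418 to 654 counts in the libraries labelled wild type and 883 to 964 in those labelled SphK2 null, which goes against the direction the label names. The sources used here do not say what was deleted in the null allele. Of the exon bases of Sphk2, 20.8% overlap Dbp or Rpl18, and reads there count for no gene. Every direction below is therefore between labels, written as wild-type-labelled and null-labelled. All 10 fibroblast markers examined were lower in the null-labelled libraries (edgeR, adjusted p under 0.05), and their summed level went from 14244 to 14699 CPM down to 3335 to 3370.2 CPM. Vim made up 95.8% of the null-labelled sum, while Col1a1, Col1a2, Col3a1, Fn1, Dcn and Lum, genes of the extracellular matrix, each fell by 99.5% to 99.8%. Thy1, one of them, had 0 counts in the null-labelled libraries. The 8 epithelial markers summed to 106 to 109.9 CPM against 384 to 410.4 CPM, nearly all of it Krt8, while Epcam and Cdh1 stayed under 1 CPM in both groups. Krt18 went the other way, from 1.19 to 0.289 CPM (edgeR adjusted p = 4.65e-08). Krt14, too low to be tested, had 0 counts in each wild-type-labelled library and 16, 7 and 12 in the null-labelled ones. The 5 markers of skeletal muscle summed to 3.73 to 5.39 CPM in every library, with Myod1 and Myog at 0, the 7 of macrophages and other blood cells to 3.15 to 3.81 CPM, and the 6 of pluripotent and germ cells to 0.262 to 0.717 CPM with Lin28a and Zfp42 at 0. The 6 endothelial markers summed to 1.89 to 2.43 CPM against 3.28 to 4.48 CPM with Emcn at 0, and the 9 of extraembryonic endoderm and trophoblast to 4.03 to 4.60 CPM against 3.69 to 4.10 CPM with Sox17 and Cdx2 at 0. Within the latter sum Gata4 went from 3 to 112 counts, Gata6 from 49 to 1 and Eomes from 55 to 6. Among the endothelial markers Pecam1 went from 54 to 120 counts and Vwf from 19 to 82, while Cdh5 went from 45 to 11. Among the blood cell markers Csf1r went from 16 to 56 counts and Cd68 from 190 to 111. The 6 neural markers summed to 429 to 437 CPM against 493 to 522 CPM. Most of that sum was Nes, which went from 301 to 434 CPM. Sox2 went from 112 to 0.093 CPM and Pax6 from 5.97 to 56.7 CPM. The part of these markers in the differences of the network was not tested.

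MAX dimers bind the E-box CACGTG, which reads the same on both strands, so the promoters of the network were searched for it. RefSeq promoter windows (GRCm38.p6, 250 bases before to 50 after the start of a gene) matched 9 of the 10 members by symbol, all but Myc. CACGTG stood in the windows of 4 of these 9 members (44.4%), Max, Mlx, Mnt and Mxd4, and in those of 2187 of all 27025 genes (8.09%). The looser form CANNTG, which includes CACGTG, stood in those of 7 of the 9 members and of 74.99% of all genes. The 4 stretches are shown because they hold the sequence that the proteins of the network bind, in genes of the network itself. Each has 24 bases on either side of the E-box, which is in capitals, on the strand of the gene. The lines give chr12:76962222-76962275 on the minus strand for Max, chr11:101087226-101087279 on the plus strand for Mlx, chr11:74830777-74830830 on the plus strand for Mnt and chr5:34187900-34187953 on the minus strand for Mxd4.
Max: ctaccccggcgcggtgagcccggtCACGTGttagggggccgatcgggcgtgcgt
Mlx: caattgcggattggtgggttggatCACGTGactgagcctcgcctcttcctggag
Mnt: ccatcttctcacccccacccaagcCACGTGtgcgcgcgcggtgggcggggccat
Mxd4: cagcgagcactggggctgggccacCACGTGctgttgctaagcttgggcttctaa
Counted to the RefSeq start of each window, which can differ from the Ensembl gene ends given below, the E-box began 3 bases before the start of Max, 40 before that of Mlx, 123 before that of Mnt and 219 before that of Mxd4. A match describes these letters only. It does not show that a dimer binds there in these cells.

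Myc rose and its 2 sister genes were lower in the null-labelled libraries. Transcripts of the MYC family came almost wholly from Myc in both groups. Levels are CPM, counts scaled to library total and, by TMM factors, to composition, and tests are edgeR's quasi-likelihood test over all 15199 genes that passed the filter on low counts. Myc (ENSMUSG00000022346, chromosome 15 from 61985341 to 61990374, plus strand, mm10) encodes the growth regulator MYC. Its level was 334, 351 and 333 CPM among wild-type-labelled libraries, against 505, 496 and 512 CPM in the null-labelled ones. The null-labelled libraries were all above the others. The mean was 1.49 times as high (log2 fold change 0.57 ± 0.024 SE, edgeR adjusted p = 1.57e-127). In bulk RNA, fewer cells of a type and less RNA per cell cannot be told apart. Whether the libraries within a label are separate cultures or embryos is not stated, so p-values cover the variation among these libraries alone, and that variation may be technical.

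Mycl (chromosome 4, 122995652 to 123002485, plus strand) encodes L-MYC, a paralog found in fewer tissues. Its level was 3.01, 2.82 and 2.93 CPM among wild-type-labelled libraries, against 1.08, 0.467 and 0.586 CPM in the null-labelled ones. All null-labelled libraries were below the lowest wild-type-labelled one, and the log2 fold change was -2.01 ± 0.24 (SE; edgeR adjusted p = 1.73e-16). These values rest on 169 counts in all against 40. Mycl was the only one of the 9 tested members that differed by over 2-fold, a size that 26.2% of all tested genes passed together with the threshold.

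Mycn (chromosome 12, 12936096 to 12941914, minus strand) encodes N-MYC, which is known from embryonic and neural progenitors. It had 11, 3 and 7 counts among wild-type-labelled libraries, against 0 in each null-labelled one, where 3 counts would be 0.154 to 0.175 CPM. Against a floor of 3 counts over the null-labelled group, Mycn was at least 6.73-fold lower. The filter on low counts removed it from the main test. With no filter the edgeR adjusted p was 5.15e-06. At 0.345 ± 0.139 CPM (SD, n = 3) in the higher group, it was a trace transcript in these cells.

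**Figure D1:**
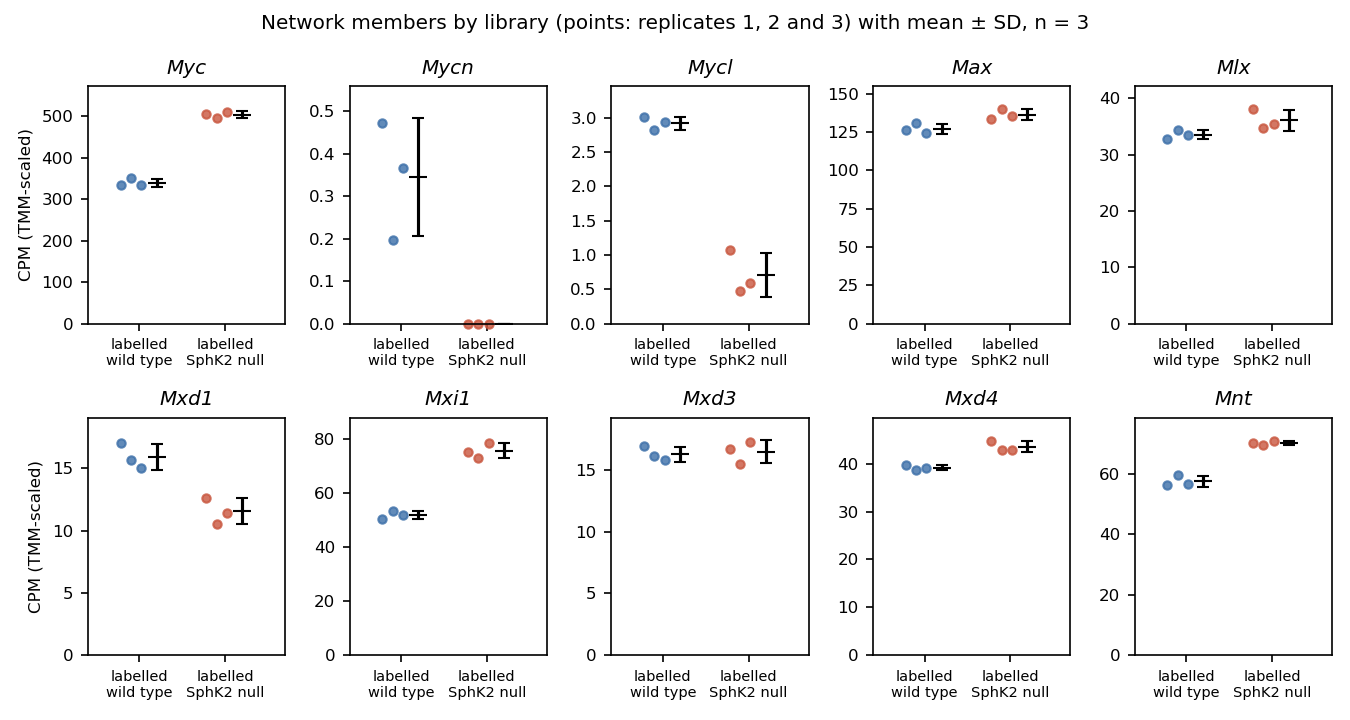
Level of each of the 10 members in CPM (TMM-scaled, axes from 0), with 1 point per library and the mean ± SD of 3 libraries beside them. Myc and Mxi1 are higher in the null-labelled libraries, Mycl and Mxd1 are lower, Mycn is at 0 there, and the groups overlap in Mxd3.

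The 2 hub genes differed by little, 7.31% for Max and 7.46% for Mlx. Max (chromosome 12, 76937269 to 76962248, minus strand) stood at 126, 131 and 125 CPM among wild-type-labelled libraries, against 134, 140.3 and 136 CPM in the null-labelled ones. The groups did not overlap, and the log2 fold change was 0.10 ± 0.031 (SE; edgeR adjusted p = 0.00151). Mlx (chromosome 11, 101087277 to 101092207, plus strand) stood at 32.9, 34.4 and 33.5 CPM against 38.1, 34.8 and 35.4 CPM. Its log2 fold change was 0.11 ± 0.053 (SE; edgeR adjusted p = 0.0482), with a 95% interval of 0.0060 to 0.21. That call was lost under 8 of 14 alternatives. Among them were leaving out any wild-type-labelled library (edgeR adjusted p = 0.173 without replicate 1, 0.0527 without replicate 2 and 0.0974 without replicate 3) or null-labelled replicate 1 (0.306). Of the 1999 exonic bases of Mlx, 385 (19.3%) also belong to Psmc3ip on the other strand, and reads there count for neither gene.

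The antagonists went in different directions. Mxi1, a MAX partner that recruits SIN3, rose with Myc, and Mnt and Mxd4 rose by less. Mxd1 fell, and Mxd3 did not pass the test. Mxi1 (chromosome 19, 53310506 to 53375810, plus strand) stood at 50.3, 53.2 and 52.0 CPM among wild-type-labelled libraries, against 75.4, 73.0 and 78.6 CPM in the null-labelled ones. All null-labelled values lay above the others, and the log2 fold change was 0.55 ± 0.042 (SE; edgeR adjusted p = 7.26e-39). Its interval of 0.47 to 0.63 overlaps that of Myc, 0.53 to 0.62.

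Mnt (chromosome 11, 74830920 to 74845725, plus strand), a broadly expressed repressor that binds both MAX and MLX, stood at 56.4, 59.7 and 56.9 CPM against 70.4, 69.8 and 70.8 CPM. The groups did not overlap and the null-labelled mean was 22.01% higher (log2 fold change 0.29 ± 0.042 SE, edgeR adjusted p = 5.61e-12). Mxd4 (chromosome 5, 34173883 to 34187720, minus strand) stood at 39.8, 38.6 and 39.1 CPM against 44.8, 42.9 and 42.9 CPM. It was higher by 11.2%, again without overlap (log2 fold change 0.15 ± 0.049 SE, edgeR adjusted p = 0.00270).

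Mxd1 (chromosome 6, 86647042 to 86669161, minus strand), known for its rise when cells differentiate, was the member of this family that fell. Its level was 17.0, 15.7 and 15.0 CPM among wild-type-labelled libraries, against 12.7, 10.6 and 11.4 CPM in the null-labelled ones. The highest null-labelled library was below the lowest of the others, and the log2 fold change was -0.46 ± 0.081 (SE; edgeR adjusted p = 1.92e-08). Mxd3 (chromosome 13, 55325168 to 55329758, minus strand), known from dividing cells in S phase, stood at 15.8 to 17.0 CPM against 15.5 to 17.3 CPM. Its groups overlapped, and the log2 fold change of 0.01 ± 0.074 (SE) had a 95% interval of -0.13 to 0.16 (edgeR adjusted p = 0.862). Differences of either sign lie within that interval.

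Of the 9 members tested, 8 passed an edgeR adjusted p of 0.05, 6 higher and 2 lower, where 79.2% of all tested genes passed, 38.1% higher and 41.1% lower. The groups did not overlap in 8 of the 9, where 79.9% of all tested genes did not. The shares called (88.9%) and without overlap are near the background. Those higher (66.7%) and lower (22.2%) lie further from it. With so few genes nothing is read from any of them about the network. The median log2 fold change over the tested members was 0.11 and the mean -0.08, the latter drawn down by Mycl. Over all tested genes the median was -0.02 and the mean -0.41. The median size of the difference was 0.29 in the members and 0.47 in all genes.

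**Figure D2:**
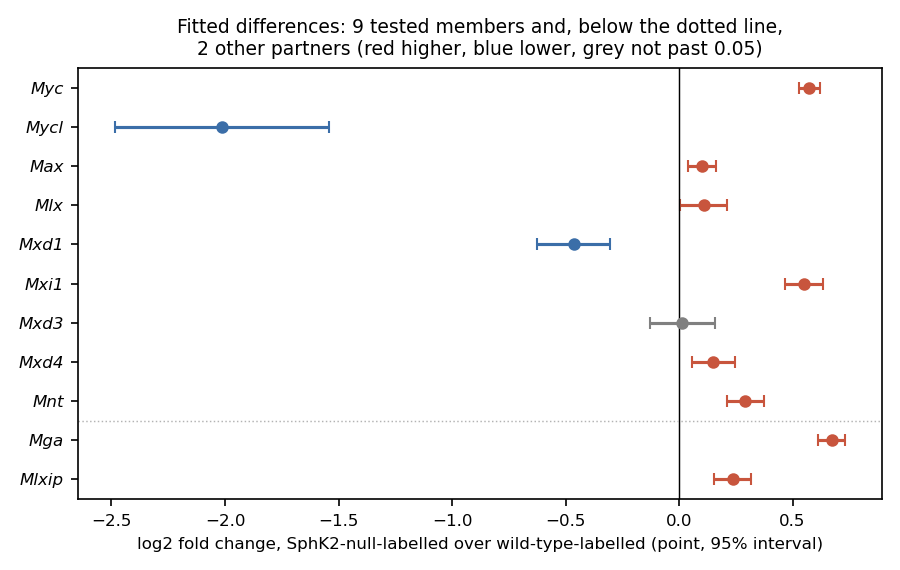
Log2 fold change of null-labelled over wild-type-labelled libraries with its 95% interval, for the 9 tested members and, below the dotted line, Mga and Mlxip. Mycl, at -2.01, stands far from the others, which lie between -0.46 and 0.67. The intervals of Myc and Mxi1 overlap.

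Levels of different genes were compared per length, as CPM per kilobase of the exon bases in the count tables. The order was the same in both groups, from high to low Myc, Max, Mlx, Mnt, Mxi1, Mxd3, Mxd4, Mxd1, Mycl and Mycn, and the ranges of neighbours in that order did not overlap. Myc stood at 123 ± 3.54 per kilobase in the wild-type-labelled and 182 ± 2.76 in the null-labelled libraries (SD, n = 3), which made it the gene of rank 376 and 184 of all 46983. Max followed at 63.5 ± 1.59 and 68.1 ± 1.70. Mlx stood at 16.8 ± 0.380 and 18.1 ± 0.893, and the others lay under 16. Mnt and Mxi1 came close in the null-labelled libraries, at 15.2 ± 0.114 and 13.5 ± 0.502, from 12.5 ± 0.384 and 9.23 ± 0.257.

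The balance of activators to antagonists was described by the sum of Myc, Mycl and Mycn over that of Mxd1, Mxd3, Mxd4, Mxi1 and Mnt, per kilobase and without a test. The MYC sum was 122, 128 and 121 among wild-type-labelled libraries, against 183, 179.5 and 185 in the null-labelled ones, and Myc made up 99.3% and 99.9% of it on average. The antagonist sum was 36.4, 36.9 and 35.9 against 43.7, 42.1 and 44.3. Both sums were thus higher in every null-labelled library. The ratio of the first to the second was 3.34, 3.46 and 3.38 against 4.18, 4.27 and 4.18, a quotient of 1.24 between the group means. The ratio was between 1.18 and 1.26 times as high in the null-labelled group when Mga was added, Mnt left out or length ignored. TPM cannot change the ratio, since it scales all genes of a library by the same number. The sum of all 8 MAX partners among the members was 2.51 to 2.53 times the level of Max in the wild-type-labelled and 3.17 to 3.40 times in the null-labelled libraries. These are ratios of transcripts and say nothing of the proteins or dimers.

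**Figure D3:**
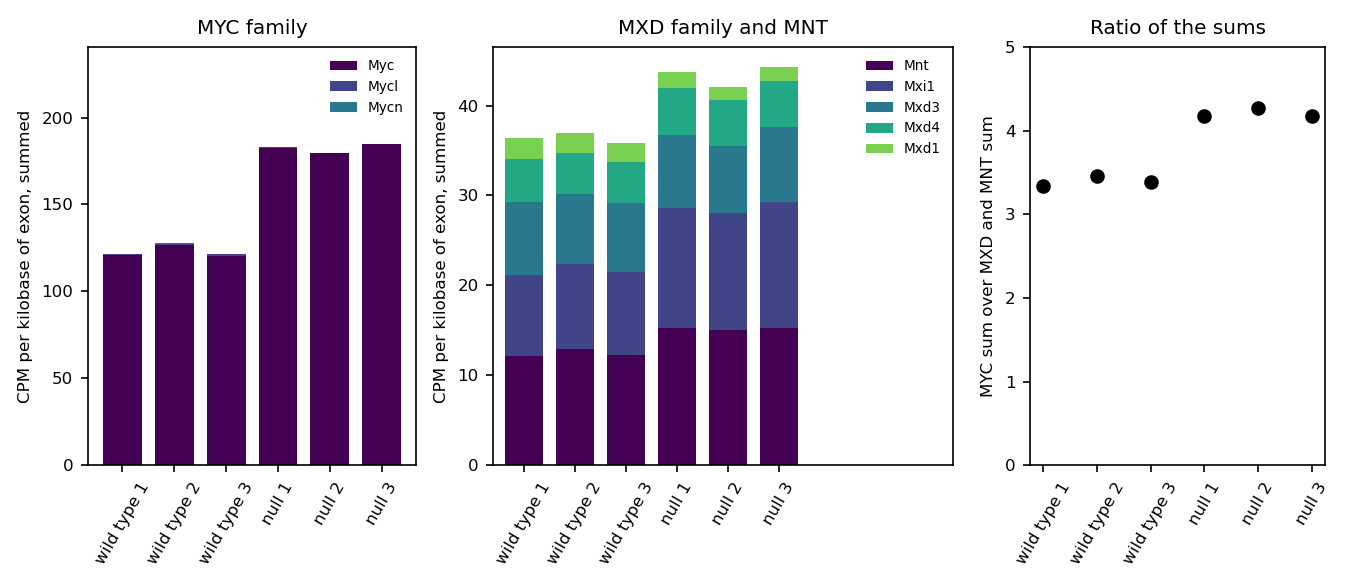
CPM per kilobase of exon in each library, stacked by gene for the MYC family (left) and for the MXD family with Mnt (middle), and the ratio of the sums (right, axis from 0). Myc fills the left bars, the Mxi1 and Mnt segments are taller in the null-labelled bars, and the ratio moves from 3.34 to 3.46 up to 4.18 to 4.27.

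Of 3 partners outside the 10 members, Mga and Mlxip rose. Mga, a large protein that binds MAX and also carries a T-box, stood at 110.5, 102 and 103 CPM against 169, 177 and 158 CPM (log2 fold change 0.67 ± 0.031 SE, edgeR adjusted p = 6.92e-101). Mlxip, which encodes MondoA, stood at 62.1, 55.8 and 60.7 CPM against 68.8, 74.0 and 69.0 CPM (0.24 ± 0.041 SE, edgeR adjusted p = 1.78e-08). In both genes the groups did not overlap. Mlxipl, which encodes ChREBP, had 1 count in all wild-type-labelled and 2 in all null-labelled libraries, at or under the floor. Pvt1, the noncoding RNA gene next to Myc, was looked at after its values were seen. It stood at 67.9 ± 0.517 against 124 ± 5.87 CPM (SD, n = 3). Its log2 fold change was 0.87 ± 0.036 (SE, edgeR adjusted p = 7.42e-126).

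Cofactors and corepressors went both ways. Of 17 proteins that work with MYC on chromatin, 10 were higher and 3 lower, with a median log2 fold change of 0.11. These 76.5% past the threshold (58.8% higher and 17.6% lower) compare with 79.2% of all tested genes (38.1% higher and 41.1% lower). Wdr5, a chromatin scaffold that holds MYC at its sites, stood at 141 ± 1.51 against 208 ± 7.21 CPM (SD, n = 3). The DNA methyltransferase Dnmt3a went from 28.1 ± 1.57 to 117 ± 4.36 CPM, and Zbtb17, the factor MIZ-1 through which MYC represses, from 41.6 ± 2.15 to 29.8 ± 1.204 CPM (SD, n = 3). With library totals alone for scaling, 1 in place of 3 was lower.

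Of 11 subunits of the SIN3 and NCOR complexes, 5 were higher and 5 lower (median 0.04). These 90.9% past the threshold compare with 79.2% of all tested genes, 38.1% higher and 41.1% lower. Sin3b, a scaffold of these complexes, stood at 97.5 ± 2.99 against 127 ± 8.27 CPM and Sap30, another subunit, at 34.0 ± 2.17 against 43.4 ± 1.42 CPM, while the histone chaperone Rbbp4 fell from 376 ± 1.52 to 291 ± 6.44 CPM (SD, n = 3). The count of higher subunits was 3 without wild-type-labelled replicate 1 or 3 or null-labelled replicate 1, 3 by DESeq2 and 2 with no filter. The count of lower ones was 2 with library totals.

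Of 16 regulators of MYC protein turnover, 7 were higher and 7 lower (median -0.04). Past the threshold were 87.5%, against 79.2% of all tested genes (38.1% higher and 41.1% lower). The ubiquitin ligases Trim32 and Stub1 fell, from 71.7 ± 0.398 to 35.5 ± 1.602 CPM and from 48.3 ± 0.892 to 32.6 ± 0.599 CPM (SD, n = 3). So did Gsk3b, a kinase that marks MYC for destruction, from 162 ± 5.80 to 119 ± 3.07 CPM. Fbxw7, the ligase that reads this mark, was higher, at 36.1 ± 2.03 against 47.8 ± 1.64 CPM (SD, n = 3), and it is named here after its values were seen. Protein levels were not measured.

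Genes known as MYC targets went both ways. Over the 5 target lists together 44 of 90 tested were higher (48.9%) and 31 lower (34.4%), against 38.1% and 41.1% of all tested genes. The median log2 fold change was 0.06 against -0.02 in all tested genes. The list of glycolysis and nutrient uptake had the highest median, 0.40, with 9 of 12 higher and 2 lower (1 lower with library totals). Slc7a5 and Slc3a2, the chains of an amino acid transporter, went from 252 ± 0.790 to 758 ± 15.2 CPM and from 187 ± 5.07 to 373 ± 3.79 CPM (SD, n = 3). Ldha, lactate dehydrogenase, went from 1419.8 ± 23.8 to 2371 ± 41.1 CPM.

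Of 30 ribosome biogenesis genes, 16 were higher and 9 lower (median 0.07), 53.3% and 30% against 38.1% and 41.1% of all tested genes. Polr1a, the large subunit of RNA polymerase I, went from 331 ± 0.733 to 565 ± 8.11 CPM, the rRNA methyltransferase Nop2 from 301 ± 2.76 to 498 ± 5.51 CPM and the processing factor Rrp12 from 83.1 ± 1.21 to 128 ± 4.61 CPM (SD, n = 3). Of 15 cell cycle targets, 8 were higher and 4 lower (median 0.12), 53.3% and 26.7% against the same shares of all tested genes. The cyclin gene Ccnd2 went from 158 ± 0.209 to 524 ± 9.07 CPM, E2f2, whose product drives DNA replication genes, went from 19.3 ± 1.08 to 96.5 ± 1.75 CPM, and Id2, an inhibitor of differentiation factors, fell from 97.1 ± 1.01 to 53.6 ± 6.08 CPM (SD, n = 3).

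Of 20 genes of nucleotide, polyamine and one-carbon synthesis, 7 were higher and 9 lower. These 35% and 45% compare with 38.1% and 41.1% of all tested genes. Odc1, the ornithine decarboxylase that starts polyamine synthesis and a textbook MYC target, went from 194 ± 2.33 to 437 ± 2.56 CPM and Impdh1, an enzyme of guanine nucleotide synthesis, from 102 ± 3.42 to 224 ± 4.32 CPM (SD, n = 3). Atic, of purine synthesis, fell from 437 ± 6.81 to 281 ± 3.86 CPM. The median of this list was -0.03 and its mean 0.08, against -0.02 and -0.41 over all tested genes.

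Of 13 translation factors and chaperones, 4 were higher and 7 lower (median -0.05). These 30.8% and 53.8% compare with 38.1% and 41.1% of all tested genes. The mitochondrial chaperones Hspd1 and Hspe1 fell from 652 ± 6.44 to 406 ± 4.79 CPM and from 101 ± 1.35 to 71.6 ± 0.706 CPM, and the cap-binding factor Eif4e from 198 ± 1.64 to 133 ± 2.53 CPM (SD, n = 3). Genes such as Ldha, Hspd1 and Hspe1 have processed pseudogenes, and featureCounts by default drops multimapping reads, so their levels are uncertain.

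Of 15 genes known to be repressed by MYC, 9 were lower and 6 higher (median -0.79, mean -2.48). Of all tested genes 41.1% were lower and 38.1% higher (median -0.02, mean -0.41). Gas1, a growth arrest gene, fell from 193 ± 6.30 to 0.400 ± 0.059 CPM and Cdkn2b, which encodes the cell cycle inhibitor p15, from 43.7 ± 1.87 to 0.088 ± 0.057 CPM (SD, n = 3). Cebpa, a factor of adipocytes and myeloid cells, had 475 counts against 1, which is 457 times the CPM (exact binomial 95% interval 81.6 to 18086). Cdkn1a and Cdkn1b, which encode the CDK inhibitors p21 and p27, went up, with log2 fold changes of 3.42 and 1.03. They are named after their values were seen. Pdgfrb of this list is also a fibroblast marker, and all 10 fibroblast markers were lower. Their part in this list was not tested.

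Of 6 genes tied to the glucose-sensing MLX partners, 3 were higher and 3 lower (median -0.02, mean -1.29). These 100% past the threshold compare with 79.2% of all tested genes, whose median was -0.02 and mean -0.41. Arrdc4, an arrestin-like target of MondoA, had 476 counts against 1, which is 458 times the CPM (exact binomial 95% interval 81.8 to 18124). Its paralog Txnip, the other classical target, stood at 77.7 ± 1.59 against 69.1 ± 5.02 CPM (SD, n = 3), and is named here after its values were seen. Klf10 fell from 73.2 ± 2.17 to 35.7 ± 0.808 CPM and G6pc3, a sugar phosphatase, rose from 40.7 ± 1.79 to 75.2 ± 2.94 CPM (SD, n = 3). Apart from genes said to be named after their values were seen, 30 genes were named from these lists. These 30 were also picked by result, for the largest differences past the threshold in each list. The largest edgeR adjusted p among them was 2.48e-12. A small value follows from that choice, so it says little of the other genes in the lists.

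**Figure D4:**
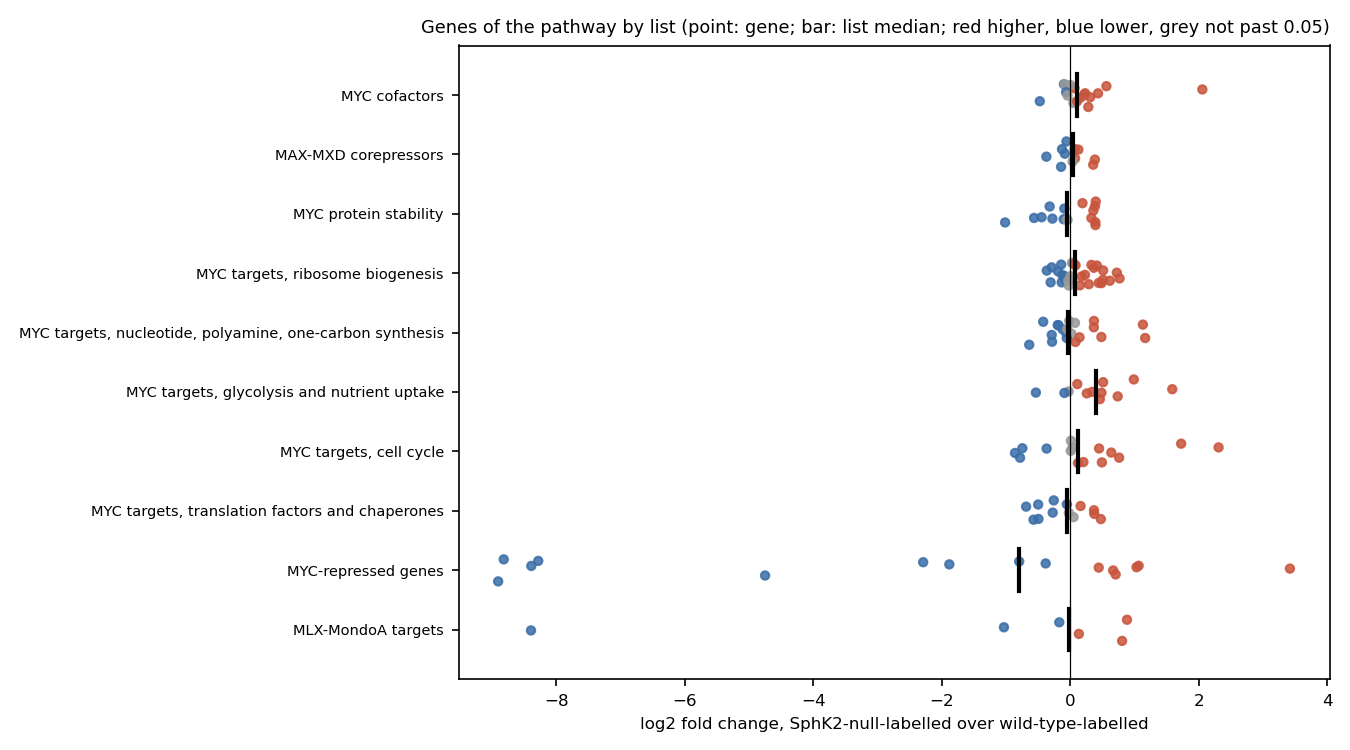
Log2 fold change of each tested gene in 10 lists of cofactors, regulators and targets (red higher and blue lower at an edgeR adjusted p under 0.05, grey not), with a bar at the median of each list. Most points lie near 0 on both sides. The glycolysis and nutrient uptake list has the highest median (0.40), and 4 of the MYC-repressed genes and Arrdc4 stand below -8.

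The genes outside the lists whose pattern over the 6 libraries was most like that of Myc were Klhdc4, Afdn and Abcb8, with a root mean square difference of 0.0098, 0.012 and 0.017 in centred log2 CPM. Such likeness was common, since 1088 of the 9943 genes compared came within 0.1 of Myc.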

How the data were processed

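RNA sequencing of 6 libraries, 3 labelled wild type and 3 labelled SphK2 null, was analysed from the deposited count of reads per Ensembl gene, which the authors made with featureCounts 1.6.2, per the file headers, from a filtered Ensembl release 83 annotation on GRCm38. Per the file headers, no strand, multimapping or overlap option was set, and by default a read that overlaps several genes is dropped. The submitters' processing notes also name Trimmomatic 0.33, Subread 1.6.2 and featureCounts 1.2.6. Identifiers were paired with symbols for 46488 of 46983 genes.

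Genes passing filterByExpr (15199) had TMM scaling and the robust quasi-likelihood F-test of edgeR 4.0.16 under R 4.3.3, with Benjamini-Hochberg adjustment over all of them and a threshold of 0.05. The standard error is the log2 fold change over the square root of F. The test was checked on simulated counts in which few genes differed between groups. In these data 79.2% of genes were called, so that check does not cover the scaling used here. Intervals of ratios cover counting error only. Alternatives were other scalings (median of ratios, library totals), DESeq2 1.42.0, limma-voom 3.58.1, other filters and thresholds, a replicate block and leaving out each library. Named genes were the members, Mga, Mlxip, Mlxipl, Sphk2, the 3 of each list past 0.05 with the largest differences (minimum average log2 CPM 1), and the 3 genes nearest to Myc in pattern (minimum average log2 CPM 3). Members and lists were chosen with earlier results of these data known. Replicate numbers are shared between groups. Same-numbered libraries did not deviate together (r = 0.012, -0.0028 and 0.018), so no pairing was used.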

Additional observations from a re-analysis of the deposited data

How the results depend on the processing

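Of the tested members, Myc, Mycl, Max, Mxd1, Mxd4, Mxi1 and Mnt kept their direction and stayed past the threshold under all 14 alternatives, with log2 fold changes of 0.55 to 0.63 for Myc, 0.08 to 0.16 for Max and -2.45 to -1.80 for Mycl. Mlx lost its call under 8, so 5 in place of 6 members were higher there. The cause was not tested. Mxd3 missed the threshold under all, with values from -0.02 to 0.07. With library totals the median over all genes moved from -0.02 to 0.04, and 6334 genes were called higher and 5707 lower, in place of 5795 and 6245. All 30 genes named from the lists kept their calls under all 14. They were picked for large differences past the threshold, so this says little of the other genes in the lists.

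Counts that moved by over 1.5 times were those of the MYC cofactors lower in the null-labelled libraries (1 with library totals), of the glycolysis and nutrient uptake targets lower there (1 with library totals) and of the MAX-MXD corepressors (lower: 2 with library totals; higher: 3 by DESeq2, 2 with no filter, 3 at an adjusted p under 0.01 and 3 to 5 with 1 library left out). With library totals the medians of the protein stability (0.01), nucleotide (0.03), translation (0.01) and MLX-MondoA lists (0.04) turned positive, and the last also did without null-labelled replicate 1 or 3. The ratio of the MYC to the MXD family was 5.16 against 6.48 without Mnt, 2.86 against 3.36 with Mga and 1.89 against 2.32 without division by length, higher in the null-labelled group each time. The replicate block kept all 85 values it was run on, among them Myc at 0.57 and 6 members higher. It is no evidence of pairing. At or below 3 counts, 0.129 to 0.197 CPM per library, as for Mycn and Mlxipl, depth limits what can be seen.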

Other observations

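The E-box was also counted in the promoters of the MYC target lists. Of their 77 genes with a RefSeq promoter window, 22 (28.6%) held CACGTG, against 8.09% of all genes. By list the count was 6 of 24 for ribosome biogenesis, 4 of 18 for nucleotide, polyamine and one-carbon synthesis, 3 of 10 for glycolysis and nutrient uptake, 3 of 13 for the cell cycle and 6 of 12 for translation factors and chaperones. Of the MYC-repressed genes with a window, 3 of 10 held it. These are descriptions of letters and counts, with no test.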
